A study of Mus musculus with 23 samples.

Results

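Stearic acid (SA) was set against oleic acid (OA) after 5 h in mouse bone marrow-derived macrophages, on 4 arrays of each acid, which are 8 of the 23 arrays of the series. The arrays were chosen by their titles, and 19938 genes that had a probe set with a single gene symbol were tested. All cells were wild-type C57Bl/6 macrophages, grown from marrow with M-CSF for 6 days and treated after it was withdrawn. SA and OA were each given at 250 µM, bound at a molar ratio of 2:1 to fatty acid-free, low-endotoxin bovine serum albumin (BSA). SA at 20 h (n = 4), OA at 20 h (n = 4) and lipopolysaccharide (LPS) at 1 ng/mL (n = 4) were measured alongside, with 125 µM BSA alone as the vehicle (n = 3). The sample labels give 5 h for LPS and vehicle, while the series text gives 4 h for both, so a difference in time between the acids and vehicle cannot be told apart from treatment. The labels speak of wells and the series text of biological replicates, so the p-values measure only the spread between these samples, which may be technical.

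SA and OA have the same chain length, and SA is saturated while OA has a double bond. Saturated fatty acids are known to activate inflammatory and stress signalling in macrophages, whereas OA is readily stored as triglyceride in lipid droplets. Inflammatory signals act largely through the transcription factor NF-kB and through interferon-stimulated genes, and the integrated stress response acts through the factors ATF4 and CHOP. The unfolded protein response of the endoplasmic reticulum (ER) also uses XBP1, sterol supply is set by the SREBP factors, and fatty acids are sensed by the PPAR nuclear receptors.

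Levels are log2 expression values of 1 probe set per gene, and the array medians lay between 3.98 and 4.12. The deviations of single arrays from their group means had an SD of 0.16 to 0.185 with SA and 0.16 to 0.18 with OA at 5 h. Replicate 2 of SA at 20 h stood apart, at 0.215 against 0.153 to 0.161 on the other arrays of its group, and the counts and medians at 20 h are given with and without it. All 11 macrophage markers examined lay above the median of the tested genes in both groups, at array means of 9.21 to 9.28 with SA and 9.58 to 9.62 with OA, and 4 of the 11 were lower with SA. Of 12 neutrophil markers, 9 lay above that median, led by S100a8 at a mean of 11.20 with SA and 11.29 with OA, while the defining marker Ly6g stood at 2.62 with SA and 2.68 with OA. The array means of the neutrophil markers were 5.80 to 6.20 with SA and 6.19 to 6.39 with OA, and none of the 12 passed the test. All 12 nonetheless lay lower with SA, by -0.69 to -0.04 on the log2 scale (median -0.21), and the groups of 3 did not overlap. Dendritic cell markers lay at 3.70 to 3.78 with SA and 3.74 to 4.00 with OA, with 2 of 9 above the median of the tested genes with SA, 3 of 9 with OA, and 1 called lower (2 without OA replicate 1 and 0 without OA replicate 3). Lymphocyte markers lay at 2.76 to 2.87 with SA and 2.97 to 3.12 with OA, and 2 of 9 were lower with SA (1 without OA replicate 1 or 4 or SA replicate 3 or 4). Of 7 mast cell, 4 erythroid and 8 stromal markers none passed. The part of other cells in the differences that follow was not tested, and in bulk RNA fewer cells of a type and less RNA per cell cannot be told apart.

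Which genes separate the saturated from the monounsaturated acid early was asked by comparing SA with OA directly. The largest rises with SA were in Acod1 (2.20 on the log2 scale), the enzyme that makes itaconate, in the neutrophil-attracting chemokines Cxcl2 (2.15) and Cxcl3 (2.08), and in the prostaglandin synthase Ptgs2 (1.94). Among the genes with a single symbol, the largest falls were in F630028O10Rik (-1.44) and in Enc1 (-1.33), an actin-binding protein. The signalling regulator Cytip (-1.32) and the proton-sensing receptor Gpr65 (-1.30) followed. Of the 19938 genes, 1131 (5.67%) passed the limma test at an adjusted p under 0.05, of which 658 (3.3%) rose and 473 (2.37%) fell. At least 2-fold differences passed for 92 genes (0.461%), 73 upwards and 19 downwards. The groups did not overlap for 2081 genes (10.4%). The median standard error (SE) of a difference was 0.12 on the log2 scale, and the median difference over all genes was 0.01. In the fit of these 8 arrays alone, 660 genes passed, 405 higher and 255 lower with SA.

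Against vehicle, 664 genes (3.33%) passed with SA and 14 (0.0702%) with OA, where 4 (0.0201%) were higher and 10 (0.0502%) lower. These comparisons share arrays with that of SA against OA, so values are given side by side. The genes counted next were chosen on the same SA and OA arrays. The direction of their counts and medians is largely set by that choice and is not a separate result. Of the 658 genes higher with SA than with OA, 322 were higher with SA than with vehicle and 0 lower, at a median log2 difference of 0.40 from vehicle. With OA, 0 of them were higher than with vehicle and 10 were lower, at a median of -0.13. Of the 473 genes lower with SA than with OA, 212 were lower and 1 was higher with SA than with vehicle (median -0.37), and 3 were higher and 0 lower with OA than with vehicle (median 0.09). The count for SA was 389 without vehicle replicate 2. For OA it was 9 without vehicle replicate 2, 7 without vehicle replicate 3 and 29 with variance trend and robust moderation.

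**Figure D1:**
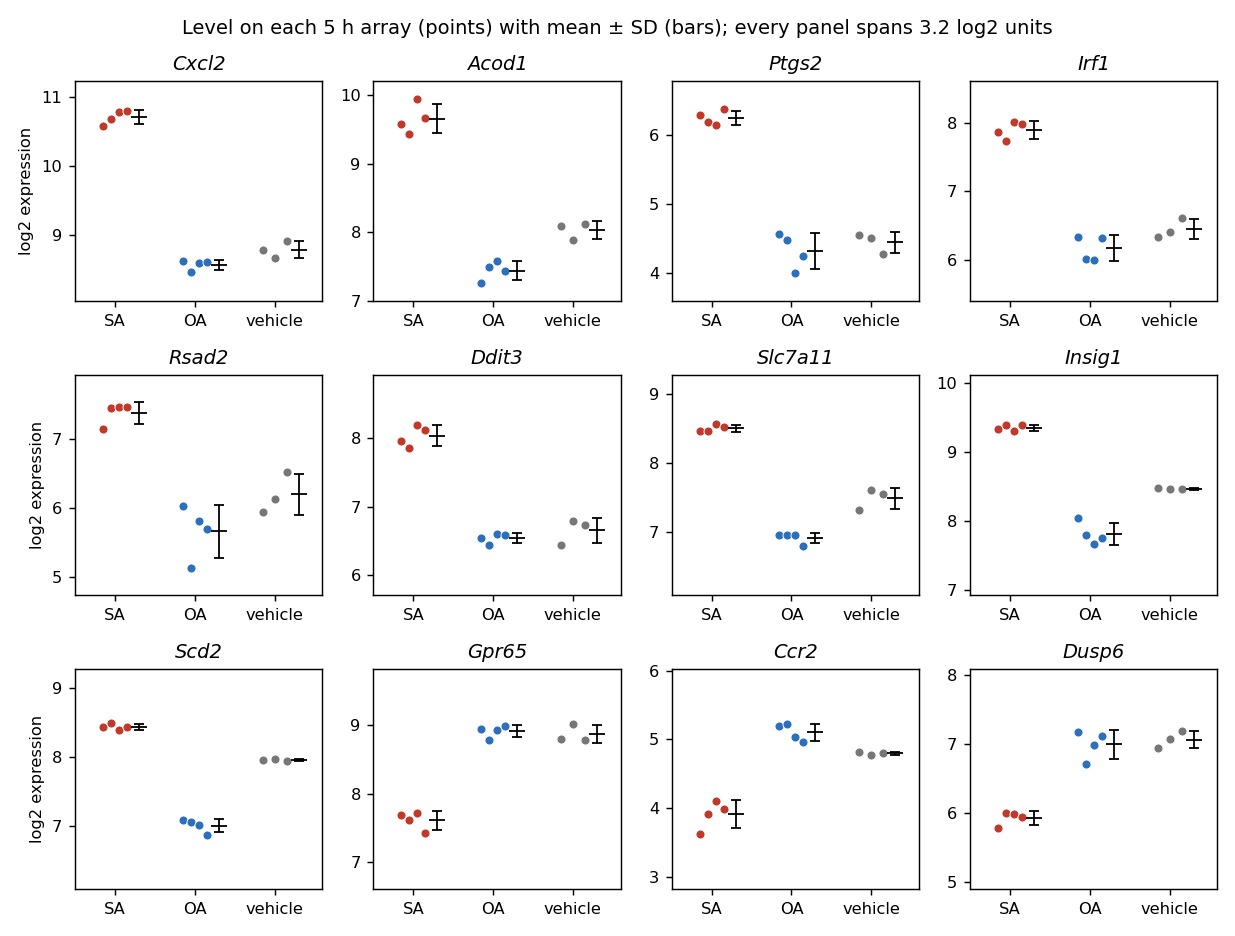
Log2 expression on each 5 h array (points) of 12 genes, with the group mean and SD (bars), for SA (4 arrays), OA (4 arrays) and vehicle (3 arrays); every panel spans the same height. Cxcl2, Acod1, Ptgs2, Irf1, Rsad2 and Ddit3 lie higher with SA than with OA, Insig1 and Scd2 lie above vehicle with SA and below it with OA, and Gpr65, Ccr2 and Dusp6 lie lower with SA than with OA.

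The neutrophil-attracting chemokines Cxcl1, Cxcl2 and Cxcl3 were among the 15 largest rises. Cxcl2 (probe set 10523156, chromosome 5) stood at 10.59, 10.69, 10.79 and 10.80 with SA, against 8.62, 8.46, 8.59 and 8.61 with OA. The largest rises and falls, here and below, were drawn only from genes whose SA and OA groups did not overlap. For these genes the lack of overlap follows from that choice and is not a separate result. Every SA value of Cxcl2 exceeded every OA value, and the log2 difference was 2.15 ± 0.10 (SE), 4.42-fold (adjusted p = 4.96e-13). Its promoter is shown because, among the genes of the chemokine, cytokine and NF-kB lists that rose, it has the largest rise with a window that holds the NF-kB letters GGG, any 2 bases and TTTCC. The window, from RefSeq on GRCm38.p6, runs from 250 bases before to 50 after the start of the gene at chr5:90903649-90903948 on the plus strand, and capitals mark the matches.
Cxcl2: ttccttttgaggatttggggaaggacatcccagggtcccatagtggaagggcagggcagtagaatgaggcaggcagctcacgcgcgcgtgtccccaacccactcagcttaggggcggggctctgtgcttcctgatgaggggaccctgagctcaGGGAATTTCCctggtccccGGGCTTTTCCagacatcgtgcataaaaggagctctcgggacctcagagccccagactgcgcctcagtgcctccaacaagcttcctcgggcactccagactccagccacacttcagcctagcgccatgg
The left ends of the 2 matches are 97 and 78 bases before the start of the gene, and they do not overlap. Of all 27025 genes with such a window, 1.89% hold this motif on either strand. A window was available for 20 of the 27 genes of these lists that rose, too few for a share. Among them the letters were also found before Cxcl3, Cxcl1, Csf1, Tnfaip3, Nfkbia, Rel and Nfkb2. Of all 67 measured genes of these lists, called or not, 48 had a window, too few for a share, and 12 held the motif. A match describes the letters of the window and not binding.

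Of 25 measured chemokine ligands, 7 rose with SA and 1 fell, with a median of 0.24. The fall, in Cxcl14, was lost without SA replicate 1, and 2 ligands fell without SA replicate 4. Cxcl3 stood at 6.32, 6.08, 6.32 and 6.29 with SA, against 4.13, 3.96, 4.36 and 4.22 with OA. The groups did not overlap, but OA levels lay near the array medians, so the size of the difference, 2.08 ± 0.10 (SE), is uncertain. Cxcl1 differed by 1.79 ± 0.11 (SE). Ccl5, a chemokine for monocytes and T cells, stood at 9.71, 9.81, 9.92 and 9.74 with SA, against 8.43, 8.35, 8.32 and 8.38 with OA. Its difference of 1.43 ± 0.09 (SE) between the acids stood beside 0.69 for SA against vehicle (adjusted p = 6.21e-05) and -0.74 for OA against vehicle (adjusted p = 3.46e-04). Ccl3 and Ccl4, the macrophage inflammatory proteins, differed from vehicle by 0.53 and 0.61 with SA (adjusted p = 7.28e-04 and 9.39e-04) and by -0.57 and -0.70 with OA (adjusted p = 0.00442 and 0.00335). For Cxcl2 and Cxcl1, OA differed from vehicle by -0.22 (adjusted p = 0.878) and 0.13 (adjusted p = 0.95).

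Among 25 cytokines and growth factors, 6 rose and 1 fell, with a median of 0.16. The fall, in the vascular growth factor Vegfa, was lost without OA replicate 1, 2 or 3 and without SA replicate 1, 2 or 3. Csf1, the growth factor that maintains macrophages, stood at 6.53, 6.45, 6.87 and 6.76 with SA, against 5.00, 5.16, 4.91 and 4.74 with OA. It differed by 1.70 ± 0.13 (SE, adjusted p = 1.76e-09) with no overlap between the groups. Tnf, the proinflammatory cytokine, stood at 10.27, 10.33, 10.45 and 10.40 with SA, against 9.33, 9.29, 9.19 and 9.30 with OA. Again the groups did not overlap, and the difference was 1.08 ± 0.08 (SE), or 2.12-fold (adjusted p = 1.11e-09). Tnfsf9, the ligand of the costimulatory receptor 4-1BB, rose by 1.26 ± 0.18 (SE), and the alarmin Il1a by 1.39 ± 0.25 (SE) with OA levels below the array medians. Il1b, the cytokine released by inflammasomes, did not pass. It stood at 5.25, 5.33, 5.62 and 5.70 with SA, against 5.94, 5.80, 5.59 and 5.87 with OA. The groups overlapped and the difference was -0.32 (95% interval -0.63 to -0.02, adjusted p = 0.269). Against vehicle, Il1b fell with SA by 0.68 on the log2 scale (adjusted p = 0.0152). Il6, an acute-phase cytokine, lay far below the array medians in both groups, and its difference of 0.30 (95% interval -0.05 to 0.65) did not pass.

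On the list of NF-kB subunits and inhibitors, 14 of 17 genes were higher and 1 was lower, with a median of 0.57. The list also holds genes that are neither, such as Tnfaip2 and Traf1, so the count is not one of subunits and inhibitors alone. Tnfaip2, an inducible cytoplasmic protein, rose most, by 1.00 ± 0.08 (SE), and stood at 9.45, 9.42, 9.43 and 9.43 with SA, against 8.48, 8.43, 8.32 and 8.50 with OA. The ubiquitin-editing inhibitor Tnfaip3 rose by 0.81 ± 0.08 (SE), the inhibitor Nfkbib by 0.73 ± 0.09 (SE) and the adaptor Traf1 by 0.70 ± 0.12 (SE). The single fall, in Tnip3, an inhibitor of NF-kB signalling, was lost without OA replicate 2, 3 or 4 and without SA replicate 2 or 4.

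Feedback regulators of MAP kinases and cytokines split, with 5 of 27 higher and 5 lower (median 0.11). Gadd45b, a stress-inducible activator of p38 signalling, rose by 1.47 ± 0.18 (SE), and the kinase Pim1 by 1.09 ± 0.12 (SE). Dusp6, the phosphatase of ERK, stood at 5.79, 6.00, 5.99 and 5.94 with SA, against 7.18, 6.71, 6.99 and 7.12 with OA, a difference of -1.07 ± 0.09 (SE, adjusted p = 1.26e-08). Its groups did not overlap. Zfp36l1, an mRNA-decay factor, fell by 1.09 ± 0.16 (SE) on the log2 scale. Immediate early transcription factors split as well, with 4 of 25 higher (2 in the fit of the 8 arrays alone) and 3 lower. The AP-1 subunit Fos stood at 7.73, 7.63, 7.53 and 7.62 with SA, against 8.53, 8.41, 8.44 and 8.41 with OA, a difference of -0.82 ± 0.09 (SE). Myc fell by 0.72 ± 0.09 (SE) and the antiproliferative gene Btg2 by 0.76 ± 0.09 (SE), whereas the small MAF protein Maff rose by 0.76 ± 0.15 (SE).

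Antiviral interferon-stimulated genes rose with SA, with 16 of 30 higher, none lower and a median of 0.36. Rsad2, the antiviral enzyme viperin, stood at 7.15, 7.46, 7.47 and 7.47 with SA, against 6.03, 5.13, 5.81 and 5.70 with OA, with no overlap. It differed by 1.72 ± 0.17 (SE), 3.3-fold (adjusted p = 9.74e-08). Its promoter is shown as that of the largest rise in the list with the letters of an interferon-stimulated response element, GAAA, any 2 bases and GAAA. The window lies at chr12:26456403-26456702 on the minus strand (RefSeq, GRCm38.p6) and is written along the gene with the match in capitals.
Rsad2: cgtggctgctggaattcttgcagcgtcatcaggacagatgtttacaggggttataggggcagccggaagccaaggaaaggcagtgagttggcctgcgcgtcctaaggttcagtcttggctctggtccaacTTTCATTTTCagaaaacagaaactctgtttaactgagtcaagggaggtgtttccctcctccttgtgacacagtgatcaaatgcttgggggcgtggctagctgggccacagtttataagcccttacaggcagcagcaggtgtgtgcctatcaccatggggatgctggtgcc
The match lies on the opposite strand to the gene, and its left end is 120 bases before the start. The motif occurs in 3.99% of all windows on either strand. Windows were available for 9 of the 16 genes that rose, too few for a share. Among them it was also found before Ifit1, Ifit3 and Ifih1. Of all 30 measured genes of the list, called or not, 20 had a window, too few for a share, and 11 held the motif.

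Ifit1, which binds viral RNA, stood at 7.03, 7.03, 6.70 and 6.88 with SA, against 6.00, 5.56, 5.25 and 5.88 with OA, a difference of 1.24 ± 0.20 (SE, adjusted p = 2.47e-04). Its values did not overlap either. Oasl1, an inhibitor of IRF7 translation, rose by 1.06 ± 0.12 (SE), and the antiviral GTPase Mx2 by 1.11 ± 0.17 (SE) with OA levels below the array medians. Against vehicle, 7 of the 30 genes were higher with SA and 1 was lower with OA, namely Mx1 at -0.62 (adjusted p = 0.0289). Among 22 regulators of interferon signalling and antigen processing, 3 rose and 3 fell (median 0.12). There was 1 rise without OA replicate 4, SA replicate 3 or SA replicate 4, and 1 rise and 1 fall in the fit of the 8 arrays alone. The transcription factor Irf1 stood at 7.86, 7.73, 8.01 and 7.98 with SA, against 6.34, 6.02, 6.00 and 6.33 with OA. It differed by 1.72 ± 0.11 (SE) without overlap (adjusted p = 1.35e-10) and passed in every alternative fit. Irf2, which can oppose Irf1, fell by 0.53 ± 0.08 (SE). Of 15 listed interferon-inducible GTPases 8 were measured here and 3 rose, led by Gbp5 at 1.35 ± 0.16 (SE) with OA levels below the array medians, and Gbp9 fell by 0.74 ± 0.14 (SE).

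Enzymes of lipid mediators and of immune metabolism were raised in a few members. Ptgs2, the inducible cyclooxygenase, stood at 6.29, 6.19, 6.15 and 6.38 with SA, against 4.56, 4.47, 3.99 and 4.24 with OA, without overlap. The difference was 1.94 ± 0.11 (SE), 3.83-fold (adjusted p = 1.81e-11). As OA levels lay near the array medians, its size is uncertain. The prostaglandin E synthase Ptges rose by 0.71 ± 0.13 (SE) and the prostacyclin receptor Ptgir by 0.68 ± 0.11 (SE), while the prostaglandin E receptor Ptger4 fell by 0.60 ± 0.09 (SE). Of 15 eicosanoid genes, 3 rose and 1 fell. Acod1 stood at 9.58, 9.43, 9.94 and 9.66 with SA, against 7.26, 7.50, 7.59 and 7.44 with OA. The groups did not overlap, and the difference was 2.20 ± 0.12 (SE), 4.6-fold (adjusted p = 6.26e-12). Of 11 genes for itaconate, nitric oxide and arginine, 4 rose and none fell. Besides Acod1 these were Gch1, for the cofactor of nitric oxide synthase, at 0.65 ± 0.15 (SE), the arginine transporter Slc7a2 at 0.61 ± 0.10 (SE) and the mitochondrial dismutase Sod2 at 0.51 ± 0.08 (SE).

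Of 26 pattern recognition receptors and adaptors, 4 rose and 2 fell (median 0.18), with 1 fall without OA replicate 1, 2 or 4 or SA replicate 3 or 4. Clec4e, the lectin receptor Mincle, stood at 8.85, 8.86, 8.99 and 9.01 with SA, against 7.37, 7.31, 7.26 and 7.12 with OA, a difference of 1.67 ± 0.11 (SE, adjusted p = 1.41e-10). No SA value reached down to an OA value. The lipoprotein receptor Tlr2 rose by 0.82 ± 0.10 (SE) and the single-stranded RNA receptor Tlr8 fell by 0.90 ± 0.09 (SE). Inflammasome genes split, with 3 of 16 higher and 3 lower. The sensor Nlrp3 stood at 7.53, 7.28, 7.56 and 7.63 with SA, against 6.74, 6.59, 6.74 and 6.58 with OA, a difference of 0.84 ± 0.09 (SE, adjusted p = 2.41e-07). The noncanonical caspase Casp4 rose by 0.90 ± 0.09 (SE) and the channel Panx1 by 0.89 ± 0.10 (SE), and the sensor Nlrp1b fell by 0.57 ± 0.11 (SE).

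Genes of the ATF4 and CHOP branch rose together, with 12 of 19 higher, none lower and a median of 0.51. Ddit3, which encodes CHOP, stood at 7.96, 7.85, 8.19 and 8.11 with SA, against 6.55, 6.44, 6.61 and 6.59 with OA. The difference was 1.48 ± 0.10 (SE), 2.79-fold (adjusted p = 2.67e-10), and the groups did not overlap. Ppp1r15a, the phosphatase subunit GADD34 that reverses eIF2α phosphorylation, rose by 1.86 ± 0.13 (SE), the ER membrane protein Herpud1 by 1.50 ± 0.11 (SE) and the glutathione-degrading enzyme Chac1 by 1.26 ± 0.10 (SE). The pseudokinase Trib3 varied more, at 4.55, 5.01, 5.75 and 5.27 with SA, against 4.47, 4.51, 4.19 and 4.47 with OA. Its difference of 0.74 ± 0.17 (SE, adjusted p = 0.00764) did not pass in the fit of the 8 arrays alone.

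Genes that supply amino acids, many of them targets of ATF4, rose in part. The cystine transporter Slc7a11 stood at 8.47, 8.46, 8.56 and 8.52 with SA, against 6.95, 6.95, 6.95 and 6.80 with OA. It differed by 1.59 ± 0.11 (SE), 3.01-fold (adjusted p = 4.79e-10), and every SA value lay above every OA value. Its promoter is shown as that of the largest rise in the ATF4, amino acid and tRNA synthetase lists whose window holds the letters TGATGNAA of a C/EBP-ATF response element. The window lies at chr3:50443564-50443863 on the minus strand (RefSeq, GRCm38.p6) and is written along the gene with matches in capitals.
Slc7a11: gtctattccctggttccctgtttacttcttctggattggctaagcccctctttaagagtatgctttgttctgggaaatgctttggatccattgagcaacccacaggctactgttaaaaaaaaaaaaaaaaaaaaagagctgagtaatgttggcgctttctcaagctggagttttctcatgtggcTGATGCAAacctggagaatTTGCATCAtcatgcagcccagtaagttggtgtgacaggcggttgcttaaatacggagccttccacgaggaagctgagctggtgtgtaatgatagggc
The left ends of the 2 matches are 66 and 47 bases before the start, the first on the strand of the gene and the second on the opposite strand, and they do not overlap. Of the 25 genes of these lists that rose, 22 had a window and 8 held the motif (36.4%), against 4.51% of all windows on either strand. The others were Herpud1, Asns, Chac1, Nupr1, Trib3, Yars and Atf3. Of all 66 measured genes of these lists, called or not, 51 had a window, too few for a share, and 16 held the motif. The lists hold many targets of ATF4 and the 25 genes were chosen by their rise, so the share is a description. Its excess over all windows says nothing about the rise. With the first 150 bases left out the share was 18.2%, against 2.36% of all windows.

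Of 15 amino acid transporters 5 rose and none fell (median 0.19), among them the neutral amino acid transporter Slc38a2 by 1.20 ± 0.14 (SE), the cationic transporter Slc7a1 by 1.08 ± 0.08 (SE) and the leucine transporter Slc7a5 by 0.72 ± 0.14 (SE). Asns, which makes asparagine, stood at 7.92, 7.80, 7.96 and 7.98 with SA, against 6.76, 6.46, 6.70 and 6.69 with OA, a difference of 1.26 ± 0.10 (SE, adjusted p = 1.76e-09). No overlap was seen between the groups. The mitochondrial folate enzyme Mthfd2 rose by 1.07 ± 0.13 (SE). These were the 2 of 14 genes of amino acid and one-carbon synthesis that passed, and 4 passed without OA replicate 1. Of 18 cytosolic tRNA synthetases, 6 rose (median 0.20, 3 in the fit of the 8 arrays alone), with the tyrosine enzyme Yars at 0.73 ± 0.14 (SE) and the cysteine enzyme Cars at 0.72 ± 0.10 (SE).

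The genes listed for the chaperone and degradation arms of the unfolded protein response moved little at 5 h. These lists do not hold Herpud1, which rose by 1.50 and was counted on the ATF4 and CHOP list. Of 19 ER chaperones and folding enzymes, 2 rose, at a median of -0.01, and 1 of 22 genes for XBP1 targets or ER-associated degradation did, at a median of 0.08. The central ER chaperone gene Hspa5 stood at 9.74, 9.68, 9.75 and 9.73 with SA, against 9.44, 9.39, 9.42 and 9.39 with OA. The groups did not overlap, and the difference was 0.32 ± 0.07 (SE), 1.25-fold (adjusted p = 0.00874), which did not pass in the fit of the 8 arrays alone (adjusted p = 0.0643). Dnajb9, a co-chaperone, differed by 0.37 ± 0.10 (SE), and 1 chaperone was called without OA replicate 2, 3 or 4 or without any 1 of the SA arrays. The sensor Ern1, which splices Xbp1 mRNA, rose by 0.42 ± 0.10 (SE). The Xbp1 probe set differed by 0.04 (95% interval -0.11 to 0.20, adjusted p = 0.865).

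Targets of the oxidative stress factor NRF2 rose, with 12 of 22 higher, none lower and a median of 0.48. Sqstm1, the autophagy receptor p62, stood at 10.58, 10.59, 10.71 and 10.71 with SA, against 9.37, 9.35, 9.32 and 9.23 with OA, a difference of 1.33 ± 0.08 (SE, adjusted p = 1.35e-10). Its groups did not overlap. Gclc, the catalytic subunit of the first enzyme of glutathione synthesis, rose by 1.28 ± 0.11 (SE), and its modifier Gclm by 0.84 ± 0.08 (SE). Hmox1, the heme-degrading enzyme, stood at 11.40, 11.36, 11.41 and 11.42 with SA, against 10.75, 10.72, 10.67 and 10.68 with OA, a difference of 0.69 ± 0.07 (SE, adjusted p = 3.05e-07). Slc7a11 is on this list and on that of the transporters.

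**Figure D2:**
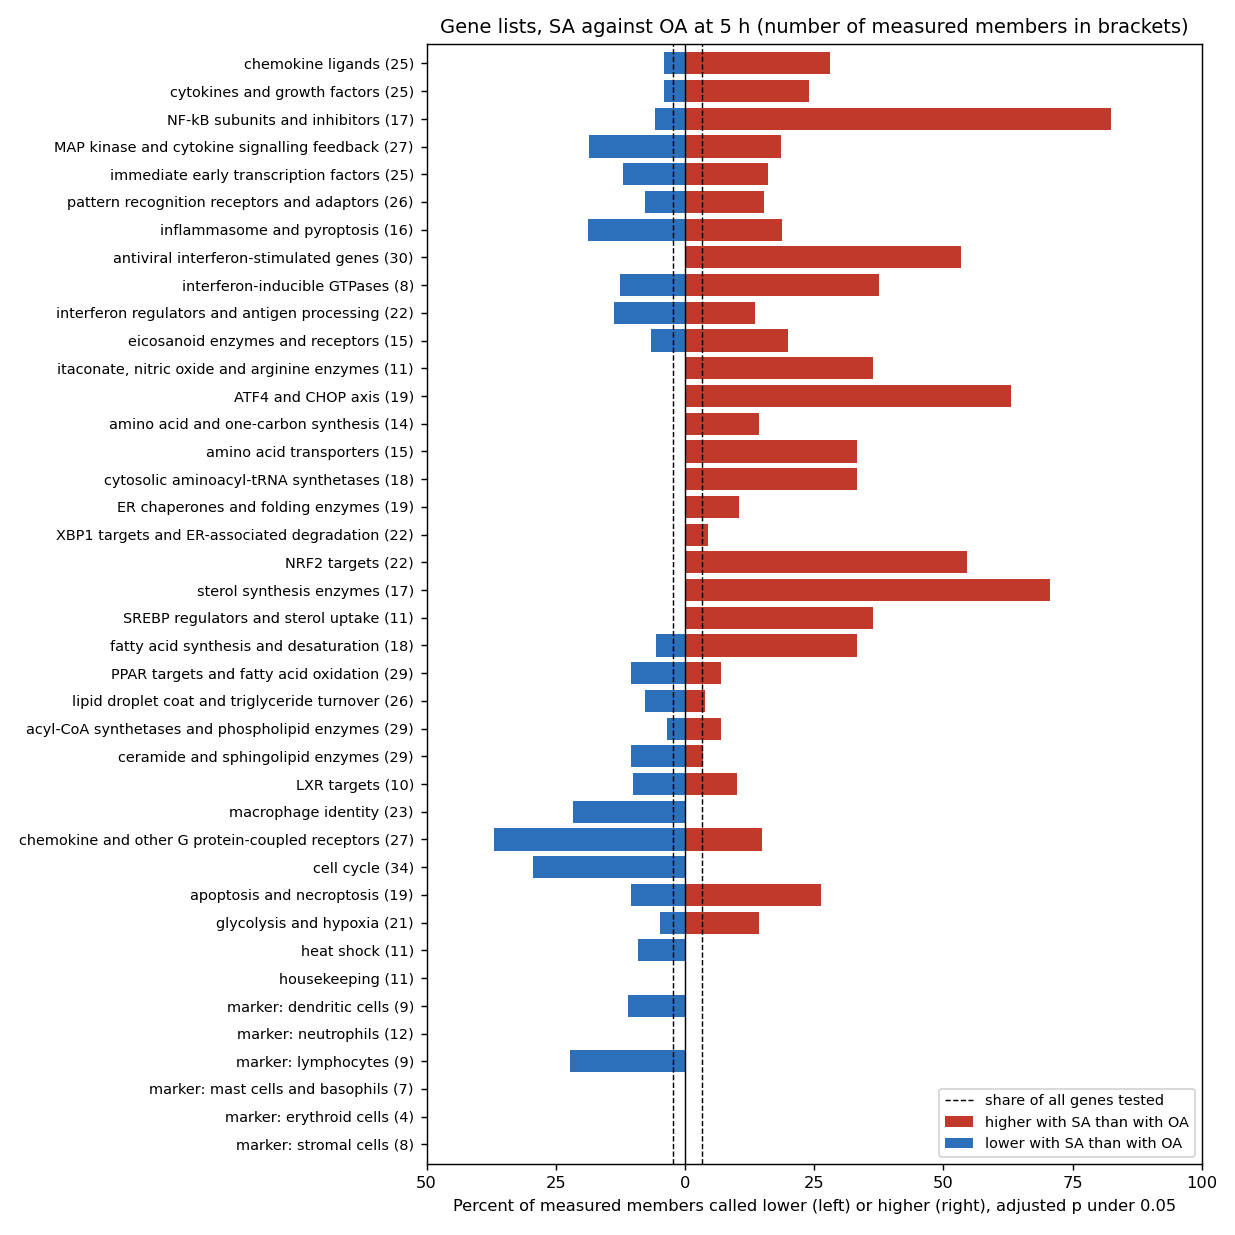
Percent of the measured members of 40 gene lists that were called higher (right) or lower (left) with SA than with OA at 5 h, at an adjusted p under 0.05; dashed lines mark the share of all 19938 genes, 3.3% higher and 2.37% lower. The list of NF-kB subunits and inhibitors, which also holds Tnfaip2 and Traf1, shows a long bar to the right (14 of 17). So do sterol synthesis enzymes (12 of 17), the ATF4 and CHOP axis (12 of 19) and NRF2 targets (12 of 22). The receptors (10 of 27) show a long bar to the left.

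Sterol genes were compared between the acids and for each acid against vehicle. Of 17 enzymes of sterol synthesis, 12 were higher with SA than with OA and none was lower, with a median of 0.49. With SA 2 of the 17 were higher than with vehicle (median 0.15), and with OA 3 were lower than with vehicle (median -0.34). Those 3 were Hmgcs1, an early enzyme of the mevalonate pathway, Idi1, an isomerase of isoprenoid units, and the demethylase Cyp51. In the limma fit the adjusted p of Hmgcs1 and Cyp51 for OA against vehicle, 0.0433 and 0.045, lay close to the threshold of 0.05. Hmgcs1 stood at 8.29, 8.08, 7.90 and 8.09 with SA, against 7.50, 7.58, 7.64 and 7.66 with OA, and at 8.08, 8.04 and 8.15 with vehicle. The SA and OA groups did not overlap, with a difference of 0.49 ± 0.09 (SE, adjusted p = 5.91e-04). Beside it stood 0.00 for SA against vehicle (95% interval -0.20 to 0.20) and -0.49 for OA against vehicle (adjusted p = 0.0433). The SA against OA call of Hmgcs1 was lost in the limma fit with the replicate block (adjusted p = 0.0738). Its promoter is shown as the only available window among these genes with the letters TCACNCCAC of a sterol response element, at chr13:119690101-119690400 on the plus strand (RefSeq, GRCm38.p6), with the match in capitals.
Hmgcs1: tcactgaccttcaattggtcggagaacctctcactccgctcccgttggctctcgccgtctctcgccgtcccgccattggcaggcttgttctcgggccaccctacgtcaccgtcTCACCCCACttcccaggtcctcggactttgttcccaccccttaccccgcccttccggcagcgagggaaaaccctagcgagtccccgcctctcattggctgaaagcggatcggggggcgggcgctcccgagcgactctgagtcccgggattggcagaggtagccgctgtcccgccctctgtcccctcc
The left end of the match is 137 bases before the start. Of the 28 measured genes of the sterol and SREBP lists 23 had a window and 1 held the motif (4.35%), against 1.44% of all windows on either strand, and 0 held it with the first 150 bases left out. Of the 16 that rose, 12 had a window, too few for a share, and 1 held it. These letters are not in the other windows, which says nothing about the factor.

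Insig1, the ER protein that retains SREBP, is itself a target of SREBP. It stood at 9.33, 9.39, 9.31 and 9.39 with SA, against 8.04, 7.80, 7.66 and 7.75 with OA, and at 8.48, 8.46 and 8.46 with vehicle. The 3 groups did not overlap, with 1.54 ± 0.09 (SE) between the acids (adjusted p = 6.13e-11), 0.88 for SA against vehicle (adjusted p = 3.00e-06) and -0.66 for OA against vehicle (adjusted p = 0.00276). Of 11 SREBP regulators and sterol uptake genes, 4 rose with SA against OA, among them the cholesterol carrier Stard4 at 0.58 ± 0.10 (SE) and the ubiquitin ligase Mylip at 0.63 ± 0.10 (SE). Mvd, Lss and Sc5d, later enzymes of the pathway, rose by 0.94 ± 0.14 (SE), 0.82 ± 0.15 (SE) and 0.79 ± 0.09 (SE).

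Of 18 genes for fatty acid synthesis and desaturation, 6 rose and 1 fell (median 0.17). The fall, in the acetyl-CoA carboxylase Acacb, was lost without OA replicate 2, 3 or 4 and without SA replicate 1, 2 or 4. Scd2, a desaturase that makes monounsaturated fatty acids, stood at 8.44, 8.50, 8.39 and 8.43 with SA, against 7.08, 7.05, 7.01 and 6.87 with OA, and at 7.96, 7.97 and 7.95 with vehicle. The 3 groups again did not overlap, with 1.44 ± 0.10 (SE) between the acids (adjusted p = 9.16e-10), 0.48 for SA against vehicle (adjusted p = 0.0134) and -0.96 for OA against vehicle (adjusted p = 8.14e-05). The delta-6 desaturase Fads2 rose by 1.08 ± 0.15 (SE). The desaturase Scd1 rose by 0.89 ± 0.19 (SE) and the acetyl-CoA synthetase Acss2 by 0.76 ± 0.12 (SE), with OA levels below the array medians.

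**Figure D3:**
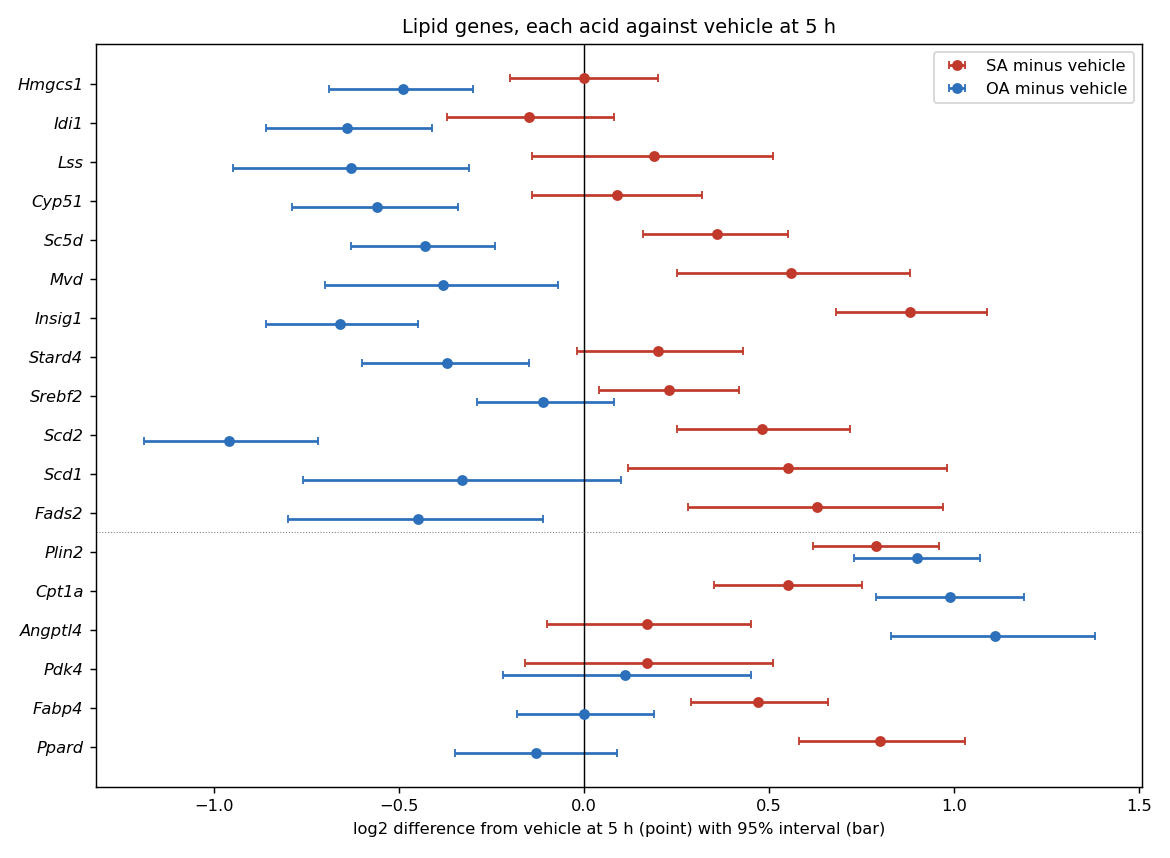
Log2 difference from vehicle at 5 h (point) with its 95% interval (bar) for 18 lipid genes, with SA and with OA; 12 genes of sterol and fatty acid synthesis and their regulators are separated by a dotted line from 6 PPAR and lipid storage genes. Insig1 and Scd2 lie above 0 with SA and below it with OA, and Plin2 lies at 0.79 with SA and 0.90 with OA.

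Of the 29 genes of the PPAR and fatty acid oxidation list, 2 rose with OA against vehicle and 0 fell, with a median of 0.04. Of the 14 genes that passed for OA against vehicle, 4 rose. These were the lipoprotein lipase inhibitor Angptl4 (1.11 ± 0.13, SE), Cpt1a (0.99 ± 0.10, SE), which admits fatty acids to mitochondria, the lipid droplet coat Plin2 (0.90 ± 0.08, SE) and the anion transporter Slco2b1 (0.80 ± 0.14, SE). The 10 that fell were Saa3, Scd2, Ccl5, Ccl4, Insig1, Idi1, Mx1, Ccl3, Cyp51 and Hmgcs1. Plin2 stood at 10.16, 10.25, 10.26 and 10.25 with SA, against 10.26, 10.33, 10.40 and 10.37 with OA, and at 9.36, 9.51 and 9.45 with vehicle. Plin2 lay above vehicle with both acids, by 0.79 with SA (adjusted p = 8.95e-07), and the difference between the acids was -0.11 (95% interval -0.27 to 0.05, adjusted p = 0.528). Cpt1a stood at 6.95, 6.84, 7.17 and 7.09 with SA, against 7.43, 7.51, 7.40 and 7.47 with OA, and at 6.43, 6.48 and 6.47 with vehicle. It was above vehicle with SA, by 0.55 (adjusted p = 9.48e-04), and SA minus OA was -0.44 ± 0.09 (SE, adjusted p = 0.00255). Angptl4 stood at 4.92, 4.73, 4.92 and 4.91 with SA, against 6.03, 5.88, 5.79 and 5.51 with OA, and at 4.85, 4.50 and 4.73 with vehicle. With SA it differed from vehicle by 0.17 (95% interval -0.10 to 0.45), and from OA by -0.93 ± 0.12 (SE, adjusted p = 1.09e-05).

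Over the 29 genes of the PPAR and fatty acid oxidation list, 2 rose and 3 fell with SA against OA (median -0.10). The rises were in the receptor gene Ppard (0.93 ± 0.10, SE) and in the fatty acid carrier Fabp4 (0.47 ± 0.08, SE). Pdk4, the pyruvate dehydrogenase kinase, lay below the array medians and differed by 0.06 (95% interval -0.25 to 0.37). Of 26 genes of lipid droplets and triglyceride turnover, 1 rose and 2 fell. Mgll, the monoacylglycerol lipase, rose by 1.27 ± 0.11 (SE, adjusted p = 3.23e-08), and Abhd5, the coactivator of the triglyceride lipase ATGL, stood at 7.95, 7.89, 7.99 and 7.94 with SA, against 8.52, 8.66, 8.55 and 8.57 with OA. Without OA replicate 2 the rises were 2, and without OA replicate 1, 2 or 3 or SA replicate 1, 2 or 3 the falls were 1. Of 29 acyl-CoA and phospholipid enzymes, 2 rose and 1 fell, the lysophosphatidylcholine acyltransferase Lpcat1 at -0.96 ± 0.10 (SE), with 2 falls without OA replicate 3. In 29 ceramide and sphingolipid genes, 1 rose, the glucosylceramide synthase Ugcg at 0.54 ± 0.11 (SE), and 3 fell, of which 1 passed without OA replicate 1 or SA replicate 4. The ceramide synthase Cers5 fell by 0.55 ± 0.08 (SE). Among 10 LXR targets 1 rose and 1 fell, the fall in Apoc1 being lost without any 1 array other than SA replicate 1, and the cholesterol exporter Abca1 differed by 0.16 ± 0.08 (SE, adjusted p = 0.305).

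Receptors by which macrophages sense chemokines, lipids and protons fell in many members, with 10 of 27 lower, 4 higher and a median of -0.26. The 4 rises became 2 without OA replicate 2, OA replicate 3 or SA replicate 3. Gpr65 stood at 7.69, 7.61, 7.72 and 7.42 with SA, against 8.94, 8.78, 8.93 and 8.98 with OA, without overlap. It differed by -1.30 ± 0.11 (SE), 2.46-fold lower (adjusted p = 1.26e-08). The monocyte chemokine receptor Ccr2 stood at 3.63, 3.91, 4.11 and 3.99 with SA, against 5.19, 5.22, 5.04 and 4.96 with OA, a difference of -1.19 ± 0.11 (SE), and its mean with SA lay below the array medians. Cx3cr1, the fractalkine receptor, stood at 7.27, 7.23, 7.48 and 7.37 with SA, against 8.41, 8.34, 8.29 and 8.42 with OA, a difference of -1.03 ± 0.12 (SE). Neither receptor's groups overlapped. Ccrl2, a chemerin-binding receptor, moved the other way, at 7.72, 7.80, 8.24 and 7.98 with SA, against 6.32, 6.12, 6.18 and 6.61 with OA (1.63 ± 0.11, SE, adjusted p = 2.85e-10). Against vehicle, Gpr65, Ccr2 and Cx3cr1 differed by -1.25, -0.89 and -1.02 with SA (adjusted p = 2.26e-07, 2.42e-05 and 9.87e-06), and by 0.05, 0.30 and 0.00 with OA (adjusted p = 0.995, 0.785 and 1).

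Of 23 genes of macrophage identity, 5 fell and none rose (median -0.18). Besides Cx3cr1 these included the Fc receptor Fcgr1 (-1.07 ± 0.12, SE), the efferocytosis receptor Mertk (-0.82 ± 0.13, SE) and the transcription factor Maf (-0.65 ± 0.11, SE). The defining markers Csf1r and Adgre1 differed by -0.13 (adjusted p = 0.39) and -0.07 (adjusted p = 0.773). Spic, a transcription factor of iron-recycling macrophages, rose by 1.92 ± 0.16 (SE), at 6.74, 6.71, 7.25 and 6.85 with SA, against 4.86, 5.24, 4.75 and 5.04 with OA.

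Cell cycle genes leaned downwards, with 10 of 34 lower, none higher and a median of -0.21. They included the D-type cyclins Ccnd1 (-0.63 ± 0.12, SE) and Ccnd3 (-0.59 ± 0.10, SE) and the ribonucleotide reductase subunits Rrm1 (-0.60 ± 0.10, SE) and Rrm2 (-0.62 ± 0.17, SE). Ccnd1 stood at 8.75, 8.87, 8.61 and 8.92 with SA, against 9.62, 9.13, 9.55 and 9.38 with OA (adjusted p = 0.00185). Its groups did not overlap. Rrm2 did not pass without OA replicate 1 or 3 or SA replicate 1, 2 or 3. The count of falls was 5 without OA replicate 1 or SA replicate 3, and 6 without OA replicate 3, SA replicate 1 or SA replicate 2. Among 19 apoptosis and necroptosis genes 5 rose and 2 fell, with 1 fall without OA replicate 3 or 4 or SA replicate 2 or 3 and in the fit of the 8 arrays alone. The death receptor Fas rose by 1.07 ± 0.14 (SE), the BH3 protein Bid by 0.90 ± 0.12 (SE) and the caspase-8 inhibitor Cflar by 0.72 ± 0.08 (SE).

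Glycolysis and hypoxia genes gave 3 rises and 1 fall among 21 (median -0.01), led by the hypoxia factor Hif1a at 0.38 ± 0.09 (SE). The rises were 1 without OA replicate 2 or SA replicate 1 and 0 in the fit of the 8 arrays alone, and the fall, in Vegfa, was lost as on the cytokine list. Of 11 heat shock genes, 1 fell, the chaperone Hsph1 at -0.55 ± 0.09 (SE). None of 11 housekeeping genes passed, and actin (Actb) differed by -0.01 (95% interval -0.15 to 0.14). A difference that did not pass does not show that the acids act alike on that gene.

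Genes regulated by LPS were followed because the LPS and vehicle arrays are separate from those of SA and OA. The fit gives each gene a shared estimate of its spread, so calls in these comparisons are not independent. The shares that follow are a description and were not tested. LPS against vehicle called 4464 genes (22.4%), 1839 (9.22%) higher and 2625 (13.2%) lower. Of the 586 called at least 2-fold higher with LPS, 186 (31.7%) rose and 11 (1.88%) fell with SA against OA, with a median of 0.21. Of the 253 called at least 2-fold lower with LPS, 16 (6.32%) rose and 74 (29.2%) fell, with a median of -0.20. Single genes departed from this. Il1b differed by 4.56 between LPS and vehicle on the log2 scale (adjusted p = 7.79e-17) and by -0.32 between SA and OA. Ddit3 differed by -0.38 with LPS (adjusted p = 0.0109) and by 1.48 between SA and OA. Scd2 differed by -2.81 with LPS (adjusted p = 6.93e-16) and by 1.44 between SA and OA. Asns and Chac1 differed by 0.10 and 0.05 with LPS (adjusted p = 0.565 and 0.831), and by 1.26 and 1.26 between SA and OA. The differences between the LPS and fatty acid effects were not tested.

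The 20 h arrays, which are separate from those at 5 h, show which early differences were present later. Calls at both times use the shared estimate of the spread of each gene and are not independent. At 20 h, 3324 genes (16.7%) separated SA from OA, 1539 (7.72%) higher and 1785 (8.95%) lower, and 3174 did without SA replicate 2 of that time, 1573 higher and 1601 lower. Of the 658 genes higher with SA at 5 h, 405 (61.6%, or 26.3% of those higher at 20 h) were higher and 20 were lower at 20 h, or 407 and 17 without that array. Of the 473 lower at 5 h, 371 (78.4%, or 20.8% of those lower at 20 h) were lower and 6 were higher at 20 h, or 351 and 4 without it. The median of the early rises was 0.49 at 5 h and 0.40 at 20 h, and that of the early falls was -0.46 at 5 h and -0.62 at 20 h, or 0.42 and -0.60 at 20 h without that array. The difference between the times itself passed for 992 genes (4.98%), 315 (1.58%) upwards and 677 (3.4%) downwards, or for 1026 without that array, 367 upwards and 659 downwards. With all arrays these included 41 upwards and 87 downwards of the 658 early rises, and 21 upwards and 114 downwards of the 473 early falls. Without it they included 43 upwards and 86 downwards of the early rises, and 19 upwards and 111 downwards of the early falls. The 5 h values that chose these genes are part of this difference and of the 5 h medians. That choice alone shifts the change downwards for early rises and upwards for early falls. These counts by direction, and the 5 h medians beside those at 20 h, thus do not measure a change.

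Of 27 genes with values given whether called or not, 11 passed this test of time with and without that array. The SA minus OA difference of Slc7a11 was 1.59 at 5 h and 3.53 at 20 h, and that of Hspa5 was 0.32 at 5 h and 1.29 at 20 h (adjusted p of the change = 9.91e-09 and 5.60e-07). Irf1 gave 1.72 at 5 h and 0.81 at 20 h, and Nlrp3 0.84 at 5 h and -0.31 at 20 h (adjusted p of the change = 3.31e-04 and 4.77e-07). Ccnd1 gave -0.63 at 5 h and -2.60 at 20 h (adjusted p of the change = 3.91e-08). Without that array the 20 h differences were 3.54 for Slc7a11, 1.34 for Hspa5, 0.90 for Irf1, -0.28 for Nlrp3 and -2.56 for Ccnd1. By list, ER chaperones had 2 rises of 19 at 5 h and 17 at 20 h (median 0.92), and cell cycle genes had 10 falls of 34 at 5 h and 29 at 20 h (median -1.05). Without the array that stands apart, the 20 h medians were 0.97 and -1.02, with the same counts.

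**Figure D4:**
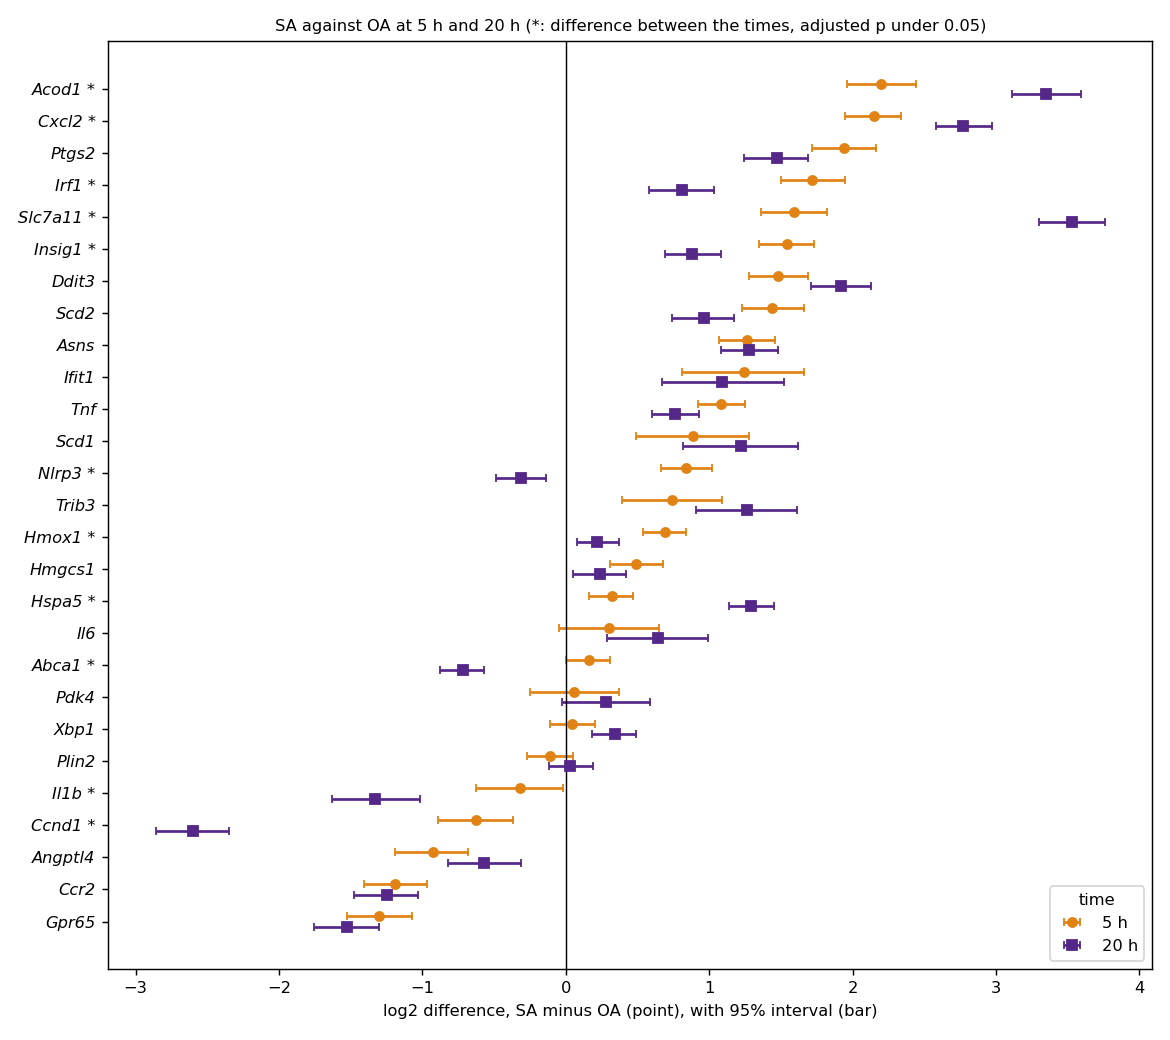
SA minus OA log2 difference (x axis) with 95% intervals at 5 h (orange circles) and 20 h (purple squares) for 27 genes; an asterisk marks an adjusted p under 0.05 for the change between times. Slc7a11, Acod1 and Hspa5 lie further right at 20 h, Irf1 and Insig1 further left, and Ccnd1 lies far to the left at 20 h.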

How the data were processed

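RNA of each sample was hybridised to 1 array. The deposited series table holds log2 expression values per probe set. The submitters' processing notes name RMA and limma, and their versions and roles are not given in the sources used here. Of 35556 probe sets, 21789 had 1 gene symbol in the platform annotation, 1621 had several and 12146 had none. For the 999 genes with several probe sets the one of highest mean was kept, which gave 19938 genes.

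Differences are SA minus OA (or treatment minus vehicle) on the log2 scale. They were fitted with limma 3.58.1 in R 4.3.3 (lmFit and eBayes) with 1 mean for each of the 6 groups over all 23 arrays. Two-sided p-values were adjusted by Benjamini-Hochberg over all genes, and genes under 0.05 were called. List counts are over the measured members, and the other listed genes were not analysed here. The script was tested on simulated data. Promoter letters were searched on both strands in Python 3.11.15.

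The arrays compared, the gene lists and the tests were chosen with earlier results of these data known. Genes named with values were drawn from the 15 largest rises and the 15 largest falls without overlap, up to 4 called members of each list, and 27 genes given whether called or not. Beyond these, motif matches, genes that differed between OA and vehicle, single members behind small counts and cell markers are named, and were chosen after their values were seen. Alternatives were the 8 arrays alone, the fit without LPS arrays, a replicate block, trend and robust moderation, median centring, quantile normalisation, array weights, a filter on dim genes, the mean over probe sets, all probe sets, and each array left out. The comparisons with vehicle and the omission of SA 20 h replicate 2 were added after seeing the data.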

Additional observations from a re-analysis of the deposited data

Results flagged for a closer look

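In 11 of 292 checks (146 genes in both groups) the highest or lowest of 4 arrays stood apart from the rest by more than Dixon's 95% critical value, and chance alone gives about 1 in 20. Among the SA arrays these were Angptl4 at 4.73, against 4.91 to 4.92 on the other 3, Cxcl3 at 6.08, against 6.29 to 6.32 on the other 3, and Gcnt1 at 6.44, against 6.19 to 6.21 on the other 3. They also included Pfkfb3 at 6.88, against 6.76 to 6.78 on the other 3, Plin2 at 10.16, against 10.25 to 10.26 on the other 3, and Rsad2 at 7.15, against 7.46 to 7.47 on the other 3. Among the OA arrays these were Bid at 5.16, against 4.72 to 4.76 on the other 3, Gadd45b at 6.77, against 6.93 to 6.94 on the other 3, and Ppp1r15a at 4.92, against 5.44 to 5.51 on the other 3. They also included Slc7a11 at 6.80, against 6.95 to 6.95 on the other 3, and Trib3 at 4.19, against 4.47 to 4.51 on the other 3.

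For 11 of 27 genes the SA minus OA difference changed between the times in the limma fit. The difference at 20 h minus that at 5 h was positive for 4 genes, at 0.63 for Cxcl2 (adjusted p = 0.00407), 1.14 for Acod1 (adjusted p = 3.89e-05), 1.94 for Slc7a11 (adjusted p = 9.91e-09) and 0.98 for Hspa5 (adjusted p = 5.6e-07). It was negative for 7 genes, at -1.0 for Il1b (adjusted p = 0.00318), -1.15 for Nlrp3 (adjusted p = 4.77e-07), -0.92 for Irf1 (adjusted p = 0.000331) and -0.47 for Hmox1 (adjusted p = 0.00443), and -0.66 for Insig1 (adjusted p = 0.00195), -0.88 for Abca1 (adjusted p = 4.41e-06) and -1.97 for Ccnd1 (adjusted p = 3.91e-08). Without SA 20 h replicate 2 the same 11 passed, and the values for Slc7a11 and Ccnd1 were 1.95 and -1.94.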

How the results depend on the processing

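The 8 arrays alone gave 660 calls, 405 higher and 255 lower, where fewer arrays inform the spread. Same-numbered SA and OA arrays had correlations of -0.112, 0.091, -0.054 and -0.064 in their deviations from the group means. Not every array correlated best with its own number. Pairing by replicate number was thus not seen, but with 4 arrays in each group this check cannot exclude it. With the replicate block on the 8 arrays, 417 genes were called, 268 higher and 149 lower. The block left 9 rises on the list of NF-kB subunits and inhibitors, 9 among antiviral interferon-stimulated genes and 7 on the ATF4 and CHOP list. It left 3 rises among cytosolic tRNA synthetases, 2 among pattern recognition receptors and 1 on the PPAR list. It left 0 rises among immediate early factors, ER chaperones, XBP1 targets and glycolysis genes. It left 3 falls among cell cycle genes and 0 among apoptosis genes. With trend and robust moderation the falls were 4 among pattern recognition receptors, 5 among inflammasome genes, 3 among heat shock genes and 2 among ER chaperones. In the fit of the 8 arrays alone the falls were 1 each among lipid droplet, ceramide and pattern recognition genes. Leaving out each array in turn gave 866 to 1033 calls, 500 to 669 higher and 319 to 410 lower, and 85 to 100 of at least 2-fold. SA against vehicle gave 389 to 580 calls when single arrays were left out, 389 of them without vehicle replicate 2. OA against vehicle gave 7 to 16 calls when single arrays were left out, with 9 without vehicle replicate 2 and 7 without replicate 3, and 29 with trend and robust moderation. The cause was not tested. With the first 150 bases of the window left out, the C/EBP-ATF motif was in 18.2% and the sterol motif in 0% of the genes with a window. Of 135 called genes under the naming rule, 107 passed under all 17 alternatives and 28 lost the call under some, 28 with the block and 17 in the fit of the 8 arrays. Only uncalled genes changed sign, Actb at 0.01 with quantile normalisation, 0.01 with array weights and 0.02 without OA replicate 1, SA replicate 1 or SA replicate 2, and Pdk4 at -0.02, -0.03 and -0.04 without OA replicate 3, SA replicate 1 and SA replicate 4, where leaving out single arrays gave -0.04 to 0.20. Low signal limits the size of differences of genes near the array medians.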

Other observations

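The following genes were chosen after their values were seen, and the SA and OA groups of those that passed did not overlap. Cd274, the checkpoint ligand PD-L1, averaged 8.44 ± 0.22 with SA and 6.92 ± 0.12 with OA (SD, n = 4 each), a difference of 1.51 ± 0.11 (SE) in the limma fit (adjusted p = 1.43e-09). The activation marker Cd83 averaged 8.14 ± 0.08 with SA and 6.88 ± 0.05 with OA (SD, n = 4 each), a difference of 1.26 ± 0.10 (SE). The costimulatory receptor Cd40 and the adhesion molecule Icam1 differed by 1.02 ± 0.09 (SE) and 1.01 ± 0.10 (SE). The acute-phase protein Saa3 averaged 8.35 ± 0.16 with SA and 6.80 ± 0.13 with OA (SD, n = 4 each) and, for OA against vehicle, differed by -0.98 (adjusted p = 0.00161).

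Slc30a1, the zinc exporter of the plasma membrane, averaged 7.93 ± 0.06 with SA and 6.95 ± 0.11 with OA (SD, n = 4 each), a difference of 0.99 ± 0.07 (SE, limma adjusted p = 1.11e-09). The iron exporter Slc40a1 and the iron importer Slc11a2 differed by 0.86 ± 0.14 (SE) and 0.88 ± 0.10 (SE). Ahr, the aryl hydrocarbon receptor, averaged 6.16 ± 0.33 with SA and 4.54 ± 0.22 with OA (SD, n = 4 each), a difference of 1.62 ± 0.14 (SE), and Tiparp, a target of that receptor, differed by 0.85 ± 0.08 (SE). Ahrr, the repressor of that receptor, lay below the array medians and differed by -0.42, which did not pass (limma adjusted p = 0.116). Activity of the receptor was not tested. Of the 13767 probe sets with several gene symbols or none, 199 (1.45%) passed, 102 higher and 97 lower with SA. Their largest called rise was 2.14 on the log2 scale. Their largest called fall was -1.72, a larger fall than that of F630028O10Rik.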
